A study of Homo sapiens with 6 samples.

Results

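Notch signalling passes between touching cells, and the 10 genes described here are its receptors NOTCH1, NOTCH2 and NOTCH3, the ligands JAG1, JAG2 and DLL1, the effectors HES1 and HEY1, the DNA-binding factor RBPJ and the inhibitor NUMB. They were chosen by name, as the rows of the deposited expression table with these gene names, and are 10 of its 58676 genes. All 10 were found, each in a single row. Expression was measured by RNA-seq in DCIS.COM, an established human breast cell line of the basal type used as a model of ductal carcinoma in situ. The study compared cells transduced with a lentiviral PLKO.1 vector carrying a non-silencing shRNA (NS control) with cells transduced with a BCL9 shRNA vector (BCL9 KD), and asked which transcripts change when BCL9, a coactivator of β-catenin, is depleted. Both groups therefore carry a lentiviral vector, and each has 3 replicates, grown in separate T75 flasks. The sample labels list 3 cultures per group, all of which were used here, whereas the methods text speaks of 2 biological replicates per condition. The sources used here do not say whether the flasks of a group came from separate transductions, so p-values measure the spread between these cultures.

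A ligand such as JAG1, JAG2 or DLL1 on one cell binds a Notch receptor on its neighbour, and the receptor is then cut by ADAM proteases and by γ-secretase. The freed intracellular domain enters the nucleus, binds RBPJ together with a Mastermind coactivator, and switches on genes such as HES1 and HEY1, which encode transcriptional repressors. Without the intracellular domain, RBPJ recruits corepressors, and NUMB directs receptors towards endocytosis and degradation. In the mammary gland the pathway is known for its part in the choice between luminal and basal cell fates.

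The promoters of the 3 receptor genes, which fell together in BCL9 KD cells, and that of HES1, the textbook target of RBPJ, are printed here in the direction of transcription. Each is the stretch before the RefSeq start of the gene in GRCh38.p14, trimmed where it reached into the gene as the files place it. The files name hg38, the same assembly, without a patch level. RefSeq entries were matched for 8 of the 10 genes. Capitals mark the letters TGGGAA, the core of the RBPJ motif, which were searched on both strands together with the STAT motif TTCNNNGAA and the TCF/LEF core CTTTGA.
HES1: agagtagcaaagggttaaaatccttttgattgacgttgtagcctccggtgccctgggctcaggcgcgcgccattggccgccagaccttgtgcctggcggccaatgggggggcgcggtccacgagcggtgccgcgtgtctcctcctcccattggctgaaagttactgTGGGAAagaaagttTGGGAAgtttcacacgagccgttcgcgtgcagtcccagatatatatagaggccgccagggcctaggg
NOTCH1: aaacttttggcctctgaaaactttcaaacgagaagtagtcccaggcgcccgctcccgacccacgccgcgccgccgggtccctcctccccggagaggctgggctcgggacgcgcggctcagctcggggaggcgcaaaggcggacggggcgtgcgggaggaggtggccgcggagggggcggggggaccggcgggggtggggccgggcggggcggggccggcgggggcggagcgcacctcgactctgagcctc
NOTCH2: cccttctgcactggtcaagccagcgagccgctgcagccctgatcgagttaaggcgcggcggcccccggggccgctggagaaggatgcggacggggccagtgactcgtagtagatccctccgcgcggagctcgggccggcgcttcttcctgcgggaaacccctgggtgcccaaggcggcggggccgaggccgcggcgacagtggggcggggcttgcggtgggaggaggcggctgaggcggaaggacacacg
NOTCH3: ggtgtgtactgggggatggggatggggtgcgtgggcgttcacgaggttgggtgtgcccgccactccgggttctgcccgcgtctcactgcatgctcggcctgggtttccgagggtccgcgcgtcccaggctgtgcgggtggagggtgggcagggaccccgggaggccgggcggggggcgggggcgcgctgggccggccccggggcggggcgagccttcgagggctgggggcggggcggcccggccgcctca
The HES1 window is chr3:194135898-194136144 on the + strand. The receptor windows lie on the − strand, that of NOTCH1 at chr9:136546049-136546298, that of NOTCH2 at chr1:120069663-120069912 and that of NOTCH3 at chr19:15200996-15201245. The HES1 window held 2 matches of the RBPJ core, at 84 to 79 and 70 to 65 bases before the start, and 0 of the other motifs. The receptor windows held 0 matches of any of the 3 motifs, as did those of JAG1, JAG2 and NUMB. RBPJ has 5 RefSeq entries, and its windows held matches too. One held the RBPJ core at 115 to 110 and 72 to 67 bases before its start, and another the TCF/LEF core at 103 to 98. Of 35116 such promoter windows of 250 bases, 20.8% held the RBPJ core at least once and 2.9% held it at 2 or more places, 6.57% held the STAT motif and 11.2% the TCF/LEF core. A match describes the letters of the window and says nothing about binding in these cells.

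Between 15222452 and 26949026 reads were counted on genes per library, as recovered from the deposited values, which are FPKM, the reads on a gene scaled to its length and to the depth of the library. Libraries of the same group correlated at Pearson r from 0.964 to 0.987 across genes on the log2 scale. BCL9, the target of the shRNA, was at 6.25, 6.24 and 5.34 FPKM in the NS control libraries and at 2.86, 2.78 and 2.59 FPKM in the BCL9 KD libraries, here and throughout in the order of replicates 1 to 3, which is a log2 fold change (log2FC) of −0.99 with a standard error (SE) of 0.0933 (limma adjusted p = 0.00773). NS control replicate 1 stood apart from the other 5 libraries, as its log2 expression relative to the mean of all 6 rose by 0.20 for every 10 percentage points of transcript GC content, against slopes from −0.07 to 0.02 in the others. Results are therefore also given after a correction of each library for GC content and without this library. The basal markers KRT5, KRT14, KRT17 and TP63 and the general epithelial markers EPCAM and CDH1 summed to between 1113 and 1279 FPKM in NS control and between 1144 and 1212 FPKM in BCL9 KD libraries, most of it KRT17 and KRT5, and 0 of the 6 passed the test. Groups did not overlap for TP63 (log2FC 0.27, limma adjusted p = 0.180) and CDH1 (log2FC −0.16, limma adjusted p = 0.173).

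Transcripts of all 3 Notch receptors fell in BCL9 KD cells. In mean FPKM, NOTCH1 fell by 30.6%, NOTCH2 fell by 30.2% and NOTCH3 fell by 43.7%. Among the ligands, JAG2 fell by 24.2% and DLL1 rose by 39.2%, while JAG1 did not pass the test. HES1, RBPJ and NUMB did not pass it either, and HEY1 was too low to be tested. In all, 5 of the 9 members tested passed a limma adjusted p of 0.05 over all genes, 4 lower and 1 higher, where 5.87% of the 13745 genes tested passed, 2.91% lower and 2.96% higher. Because cells were lysed in bulk, fewer cells that express a gene and less RNA of it per cell cannot be told apart. The fold changes of these 5 genes held with libraries left out, but their calls did not: without NS control replicate 2, BCL9 KD replicate 2 or BCL9 KD replicate 3, 0 of the 9 members passed in limma. Over all genes the count that passed fell to 12, 13 and 5. At an unadjusted limma p under 0.05 were 6, 5 and 5 of the 9 members, against 2620, 2409 and 2330 of the 13745 genes. BCL9 did not pass in these fits either (limma adjusted p = 0.0637, 0.060 and 0.070), at log2 fold changes of −0.96, −1.0 and −0.95. The analysis settings also ended calls with all libraries in: without the filter on low FPKM 0 of the 5 passed, with limma adjusted p from 0.0575 (DLL1) to 0.0843 (NOTCH1), and without the trend of limma only DLL1 and NOTCH3 passed, with NOTCH2 at 0.0514, NOTCH1 at 0.0554 and JAG2 at 0.0616. In the 3 fits with a library left out the log2 fold change of NOTCH1 lay between −0.50 and −0.46, that of NOTCH2 between −0.48 and −0.47, that of NOTCH3 between −0.68 and −0.65, that of JAG2 between −0.39 and −0.36 and that of DLL1 between 0.45 and 0.46.

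**Figure D1:**
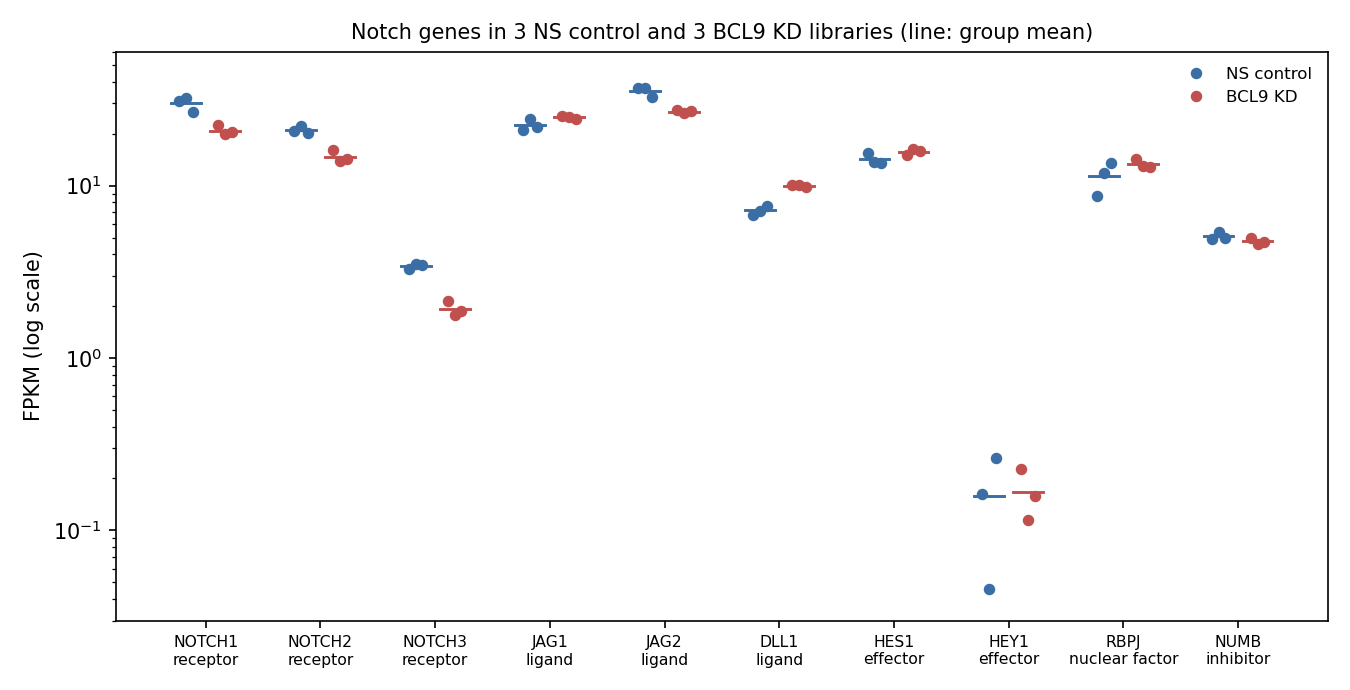
Expression of the 10 Notch genes, in FPKM on a log axis, with a point for each of 3 NS control (blue) and 3 BCL9 KD (red) libraries and a line at each group mean. The red points lie below the blue ones for NOTCH1, NOTCH2, NOTCH3 and JAG2 and above them for DLL1, and HEY1 reaches at most 0.264 FPKM.

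NOTCH1 (ENSG00000148400, chr9:136494444-136545862, − strand), the receptor with the highest level here, was at 31.0, 32.4 and 26.8 FPKM in the NS control libraries and at 22.4, 19.9 and 20.4 FPKM in the BCL9 KD libraries. The highest BCL9 KD library stayed below the lowest NS control library. This gave a log2FC of −0.51 (SE 0.0926, 95% interval −0.73 to −0.29, limma adjusted p = 0.0337), and the values rest on 3150 to 6962 reads per library. After the GC correction it was −0.44 (limma adjusted p = 0.0260), and without NS control replicate 1 it was −0.49 with an adjusted p of 0.0504 in limma, which no longer passed. An antisense gene, RP11-413M3.4, overlaps NOTCH1 and held 5 to 37 reads per library, and whether the counting used strand is not stated in the sources used here.

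NOTCH2 (ENSG00000134250, chr1:119911553-120069626, − strand) was at 20.8, 22.3 and 20.2 FPKM in the NS control replicates and at 16.1, 13.9 and 14.2 FPKM in the BCL9 KD replicates. The groups did not overlap, and BCL9 KD replicate 1 was the highest of its group, as it was for NOTCH1. Its log2FC was −0.51 (SE 0.0835, 95% interval −0.70 to −0.31, limma adjusted p = 0.0283). It was −0.43 after the GC correction and −0.52 without NS control replicate 1 and passed in both (limma adjusted p = 0.0228 and 0.0380). NOTCH2NL, a partial copy of NOTCH2, held 39 to 72 reads per library against 3734 to 7939 for NOTCH2, and how the counting split reads between the copies is not stated in the sources used here.

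NOTCH3 (ENSG00000074181, chr19:15159038-15200981, − strand), known for its role in vascular smooth muscle and also expressed in epithelia, was the lowest of the 3 receptors and showed the largest absolute fold change of the 9 members tested. It was at 3.29, 3.53 and 3.46 FPKM in the NS control replicates and at 2.14, 1.78 and 1.87 FPKM in the BCL9 KD replicates, from 275 to 702 reads per library. The groups did not overlap, with an SD of 0.122 FPKM in NS control and 0.191 FPKM in BCL9 KD. The log2FC of −0.69 (SE 0.0971, 95% interval −0.92 to −0.46, limma adjusted p = 0.0187) became −0.62 after the GC correction and −0.72 without NS control replicate 1, and passed in both (limma adjusted p = 0.0262 and 0.0257). The fourth receptor gene, NOTCH4, held only 16 to 25 reads per library and was not tested.

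JAG2 (ENSG00000184916, chr14:105140981-105168824, − strand), a Jagged-type ligand, had the highest FPKM of the 10 genes in both groups. Its level was 36.7, 36.9 and 32.8 FPKM in the NS control replicates and 27.5, 26.2 and 27.0 FPKM in the BCL9 KD replicates, and the groups did not overlap. Its log2FC was −0.39 (SE 0.0721, 95% interval −0.56 to −0.22, limma adjusted p = 0.0343). It was −0.32 after the GC correction and −0.37 without NS control replicate 1, passing in both (limma adjusted p = 0.0291 and 0.0471), and it did not pass without BCL9 KD replicate 1 (limma adjusted p = 0.0512).

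JAG1 (ENSG00000101384, chr20:10637684-10674107, − strand), the other Jagged ligand, was at 21.1, 24.4 and 21.8 FPKM in the NS control replicates and at 25.3, 25.1 and 24.3 FPKM in the BCL9 KD replicates. NS control replicate 2 reached the range of the BCL9 KD libraries, so the groups overlapped. Its log2FC of 0.15 (SE 0.0755, 95% interval −0.03 to 0.33, limma adjusted p = 0.243) did not pass, nor did it after the GC correction (0.23, limma adjusted p = 0.107) or without NS control replicate 1 (0.11, limma adjusted p = 0.347). The interval leaves room for an increase of up to 0.33 on the log2 scale, and the fall found for JAG2 lies outside it.

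DLL1 (ENSG00000198719, chr6:170282206-170306565, − strand), a Delta-type ligand, was the member that rose. It was at 6.74, 7.16 and 7.64 FPKM in the NS control replicates and at 10.1, 10.1 and 9.83 FPKM in the BCL9 KD replicates. The groups did not overlap, and the BCL9 KD libraries lay close together. The log2FC was 0.45 (SE 0.0740, 95% interval 0.28 to 0.63, limma adjusted p = 0.0280), and it was 0.53 after the GC correction and 0.41 without NS control replicate 1, passing in both (limma adjusted p = 0.0264 and 0.0308). DLL1 overlaps FAM120B, a gene on the opposite strand, which had 594 to 1091 reads per library against 375 to 875 for DLL1 and a log2FC of 0.06 (limma adjusted p = 0.707). The same 5 genes, NOTCH1, NOTCH2, NOTCH3, JAG2 and DLL1, were those whose groups did not overlap, which held for 34.2% of all genes tested, and each had a two-sided exact permutation p of 0.1, the smallest that 3 against 3 allows.

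HES1 (ENSG00000114315, chr3:194136145-194138732, + strand), the repressor whose promoter is printed above with its RBPJ cores, did not pass the test and had a slightly higher mean in BCL9 KD cells. Its level was 15.5, 13.8 and 13.5 FPKM in the NS control replicates and 15.1, 16.2 and 15.9 FPKM in the BCL9 KD replicates. NS control replicate 1 was the highest of its group and lay within the BCL9 KD range. The log2FC was 0.14 (SE 0.0793, 95% interval −0.05 to 0.33, limma adjusted p = 0.301). After the GC correction, in which 12.6% of 13577 genes passed, HES1 passed as higher in BCL9 KD cells at 0.21 (limma adjusted p = 0.0487), and without NS control replicate 1, where 5.25% of genes passed, it was at 0.20 and did not pass (limma adjusted p = 0.105). A fall as large as that of any receptor lay outside the HES1 interval.

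HEY1 (ENSG00000164683, chromosome 8, − strand), a repressor of the same family, was close to undetected. The NS control libraries held 12, 3 and 13 reads (0.163, 0.0459 and 0.264 FPKM) and the BCL9 KD libraries 13, 10 and 8 reads (0.228, 0.115 and 0.158 FPKM). The ranges overlapped, and a difference between groups was not detectable at this depth.

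RBPJ (ENSG00000168214, chr4:26163455-26435131, + strand), the factor that carries the receptor's intracellular domain on DNA, was at 8.71, 11.9 and 13.5 FPKM in the NS control replicates and at 14.3, 13.0 and 12.8 FPKM in the BCL9 KD replicates. NS control replicate 1 was the lowest library by a wide margin, and the other 5 lay between 11.9 and 14.3 FPKM. Its log2FC was 0.25 (SE 0.153, limma adjusted p = 0.331), and it shrank to 0.02 after the GC correction and to 0.08 without that library (limma adjusted p = 0.851 and 0.594). RBPJ has the lowest transcript GC content of the 10 genes, 36.8%, where JAG2 has the highest, 64.1%.

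NUMB (ENSG00000133961, chr14:73275107-73463642, − strand), which limits receptor signalling, was at 4.88, 5.40 and 4.96 FPKM in the NS control replicates and at 4.96, 4.56 and 4.72 FPKM in the BCL9 KD replicates. The groups overlapped at BCL9 KD replicate 1. The log2FC was −0.09 (SE 0.0798, 95% interval −0.28 to 0.10, limma adjusted p = 0.494), and it stayed close to 0 after the GC correction, at −0.07, and without NS control replicate 1, at −0.11.

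**Figure D2:**
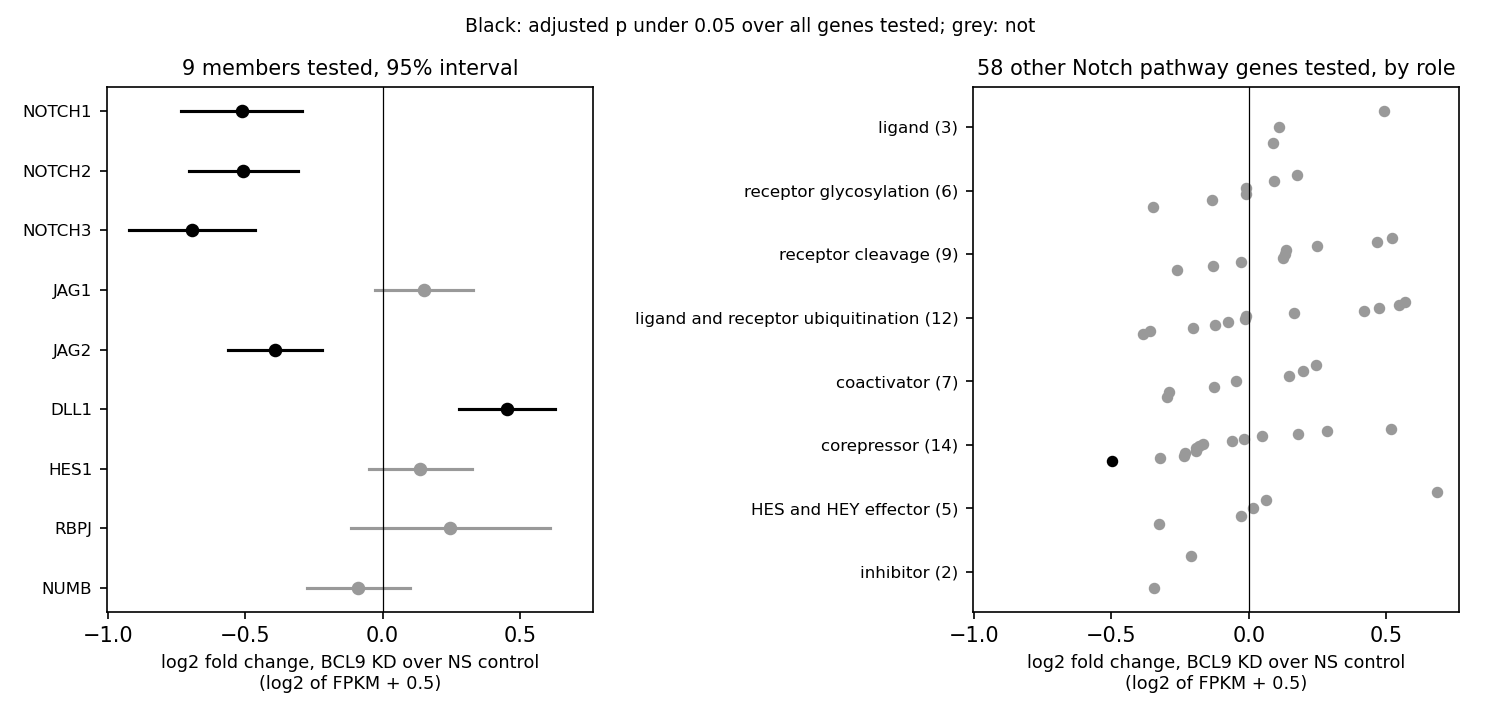
Log2 fold changes of BCL9 KD over NS control on the log2(FPKM + 0.5) scale, for the 9 members tested with 95% intervals (left) and for 58 other Notch pathway genes grouped by role with the number tested (right). Black points passed a limma adjusted p of 0.05 over all genes: the 3 receptors, JAG2 and DLL1 among the members, and TLE3 alone among the other genes.

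Levels per length placed the genes in a different order in the 2 groups. In NS control cells the order by mean FPKM was JAG2, NOTCH1, JAG1, NOTCH2, HES1, RBPJ, DLL1, NUMB, NOTCH3 and HEY1. The ranges of JAG1 and NOTCH2 overlapped there, as did those of HES1 and RBPJ, and all other neighbours were separate. In BCL9 KD cells JAG1 stood above NOTCH1, with 24.3 to 25.3 against 19.9 to 22.4 FPKM. NOTCH2 came down to the level of HES1 and RBPJ, whose ranges overlapped with its own, while DLL1, NUMB, NOTCH3 and HEY1 kept the last 4 places.

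Summed over NOTCH1 to NOTCH4, receptor transcripts came to 54.7 ± 3.89 FPKM in NS control and 37.6 ± 2.73 FPKM in BCL9 KD cells (SD, n = 3 each), with ranges of 50.6 to 58.3 and 35.6 to 40.7. Ligand transcripts, summed over JAG1, JAG2, DLL1, DLL3 and DLL4, came to 65.9 ± 3.08 and 62.7 ± 0.836 FPKM (SD, n = 3 each), with overlapping ranges. The ratio of ligand to receptor FPKM was 1.19, 1.19 and 1.24 in the NS control replicates and 1.56, 1.75 and 1.70 in the BCL9 KD replicates, so the libraries of the groups were separate. These sums follow from the genes described above and were given no test.

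The shares of NOTCH1 and NOTCH2 among receptor transcripts overlapped between the groups. NOTCH1 made up 54.9% ± 1.68 of receptor FPKM in NS control and 55.5% ± 0.495 in BCL9 KD cells, and NOTCH2 made up 38.6% ± 1.12 and 39.1% ± 0.385 (SD, n = 3 each). NOTCH3 went from 6.28% ± 0.487 to 5.12% ± 0.136 (SD, n = 3 each), without overlap. Within the ligands the make-up shifted more: JAG2 supplied 53.8% ± 1.92 in NS control and 42.9% ± 0.745 in BCL9 KD cells, JAG1 supplied 34.0% ± 1.62 and 39.7% ± 0.533, and DLL1 supplied 10.9% ± 1.05 and 15.9% ± 0.171 (SD, n = 3 each). The JAG2 to JAG1 ratio was 1.74, 1.51 and 1.51 in the NS control replicates and 1.09, 1.04 and 1.11 in the BCL9 KD replicates. HES1 amounted to 0.281, 0.236 and 0.266 of the receptor sum in the NS control replicates and to 0.370, 0.456 and 0.434 in the BCL9 KD replicates, a description of the same values as above.

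**Figure D3:**
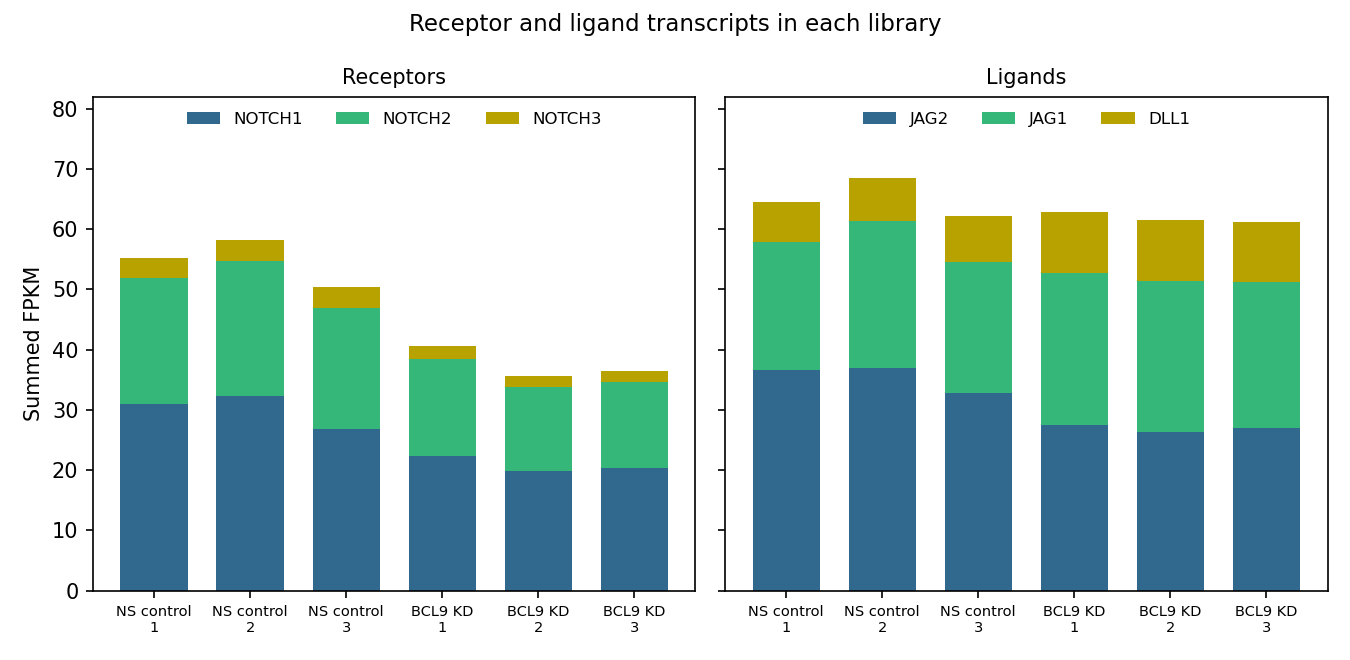
Stacked FPKM of the receptors NOTCH1, NOTCH2 and NOTCH3 (left) and of the ligands JAG2, JAG1 and DLL1 (right) in each of the 6 libraries, with both axes from 0. The receptor stacks are lower in the 3 BCL9 KD libraries (35.6 to 40.7 FPKM with NOTCH4 included) than in the NS control libraries (50.6 to 58.3 FPKM), and in the ligand stacks the JAG2 part is smaller and the DLL1 part larger in BCL9 KD.

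The rest of the pathway was described with 66 further genes listed by their textbook role, of which 58 were expressed highly enough to be tested. In limma 1 of the 58 passed (1.72%), against 5.87% of all genes. At an unadjusted limma p under 0.05 were 15 of the 58, against 3775 of the 13745 genes tested. The fold changes of the 58 lay on both sides of 0, 26 above and 32 below, with a median log2 fold change of −0.01 where that of all genes tested was 0.04. Groups did not overlap for 22 of them (37.9%, 12 higher and 10 lower), against 34.2% of all genes.

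TLE3, a Groucho-type corepressor that HES proteins recruit, was the gene that passed. It was at 8.18, 7.91 and 7.24 FPKM in the NS control replicates and at 6.0, 5.23 and 4.89 FPKM in the BCL9 KD replicates, a log2FC of −0.50 (SE 0.0970, limma adjusted p = 0.0387). The groups did not overlap. It was at −0.42 after the GC correction (limma adjusted p = 0.0361) and at −0.46 without NS control replicate 1, where it did not pass (limma adjusted p = 0.0552), nor did it without NS control replicate 2, BCL9 KD replicate 2 or BCL9 KD replicate 3, at −0.49, −0.48 and −0.44. Of the 14 corepressor genes tested, 10 had fold changes below 0 and 4 above.

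In the other roles 0 genes passed, and the gene with the largest absolute fold change of each role under the processing as reported is given. Under some alternatives another gene led among the cleavage, ubiquitination, coactivator, corepressor and effector genes. Among the 3 further ligands tested, DNER, a Delta and Notch-like transmembrane protein, was at 2.13, 1.91 and 1.37 FPKM in the NS control replicates and at 2.93, 2.65 and 2.55 FPKM in the BCL9 KD replicates (log2FC 0.49, limma adjusted p = 0.0895). It passed after the GC correction (0.57, limma adjusted p = 0.0316). POFUT1, the fucosyltransferase that modifies Notch receptors, had a log2FC of −0.35 (limma adjusted p = 0.0730) with groups that did not overlap, and was at −0.27 after the GC correction (limma adjusted p = 0.0483). It was the extreme of 6 glycosylation genes, of which 4 lay below 0.

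The 9 genes of receptor cleavage, furin, the ADAM proteases and the γ-secretase subunits, had a median log2 fold change of 0.13, with 6 above 0. After the GC correction, in which 12.6% of 13577 genes passed, 2 of these 9 did, NCSTN (0.32, limma adjusted p = 0.0453) and FURIN (0.20, limma adjusted p = 0.0440). Without it they were at 0.25 and 0.13 (limma adjusted p = 0.103 and 0.325), and they are named here after their values were seen. ADAM10, which makes the first cut after ligand binding, was at 8.43, 14.1 and 16.9 FPKM in the NS control replicates and at 18.6, 17.8 and 18.7 FPKM in the BCL9 KD replicates. The groups did not overlap, but the NS control replicates differed by more from each other than the group means did, and NS control replicate 1 was again the lowest (log2FC 0.52, limma adjusted p = 0.191). Its log2FC was 0.32 after the GC correction (limma adjusted p = 0.146) and 0.24 without that library (limma adjusted p = 0.142), and transcript GC content was low, at 37.5%. PSENEN, a γ-secretase subunit named after its values were seen, was at 0.310, 0.563 and 0.641 FPKM in the NS control replicates and at 0.736, 0.804 and 1.11 FPKM in the BCL9 KD replicates. It held only 13 to 40 reads per library. Its groups did not overlap either, and its log2FC of 0.47 (limma adjusted p = 0.188) was 0.53 after the GC correction and 0.32 without NS control replicate 1, in both above that of ADAM10, and did not pass (limma adjusted p = 0.134 and 0.308). CIR1, an RBPJ corepressor with 38.7% GC, had the same pattern, with 2.77, 4.27 and 5.78 FPKM in the NS control replicates and 6.30, 5.84 and 6.20 FPKM in the BCL9 KD replicates (log2FC 0.52, limma adjusted p = 0.182). It was at 0.36 after the GC correction (limma adjusted p = 0.139) and at 0.27 without NS control replicate 1 (limma adjusted p = 0.217), and it passed at 0.74 without NS control replicate 3 (limma adjusted p = 0.0441).

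Among 12 ubiquitination genes, NEURL3, a ligase of the Neuralized family, was highest with a log2FC of 0.57 (limma adjusted p = 0.142) from 19 to 80 reads per library, and with voom on the recovered reads it was at 0.97 (limma adjusted p = 0.0821). CREBBP, an acetyltransferase coactivator, was at −0.30 (limma adjusted p = 0.138) among 7 coactivators, of which 4 lay below 0. The 5 further effectors tested were HES2, HES4, HES6, HES7 and NRARP, of which 3 lay above 0 and 2 below, with NRARP at −0.03 (limma adjusted p = 0.937). Among them HES7, an oscillating HES repressor of the segmentation clock, was at 0.69 (limma adjusted p = 0.10), from only 6 to 41 reads per library. Its value depended on the scale, at 1.19 with 0.1 FPKM added and 1.5 with voom on the recovered reads, and it passed when only protein-coding genes were tested (limma adjusted p = 0.0365). AAK1, a kinase that phosphorylates NUMB, was at −0.35 (limma adjusted p = 0.121). The 8 genes not tested were NOTCH4, the ligands DLL4 and DLK1, NEURL1, MAML3, HES5, HEY2 and HEYL, and DLK1 and HEYL were listed at 0 in all 6 libraries.

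**Figure D4:**
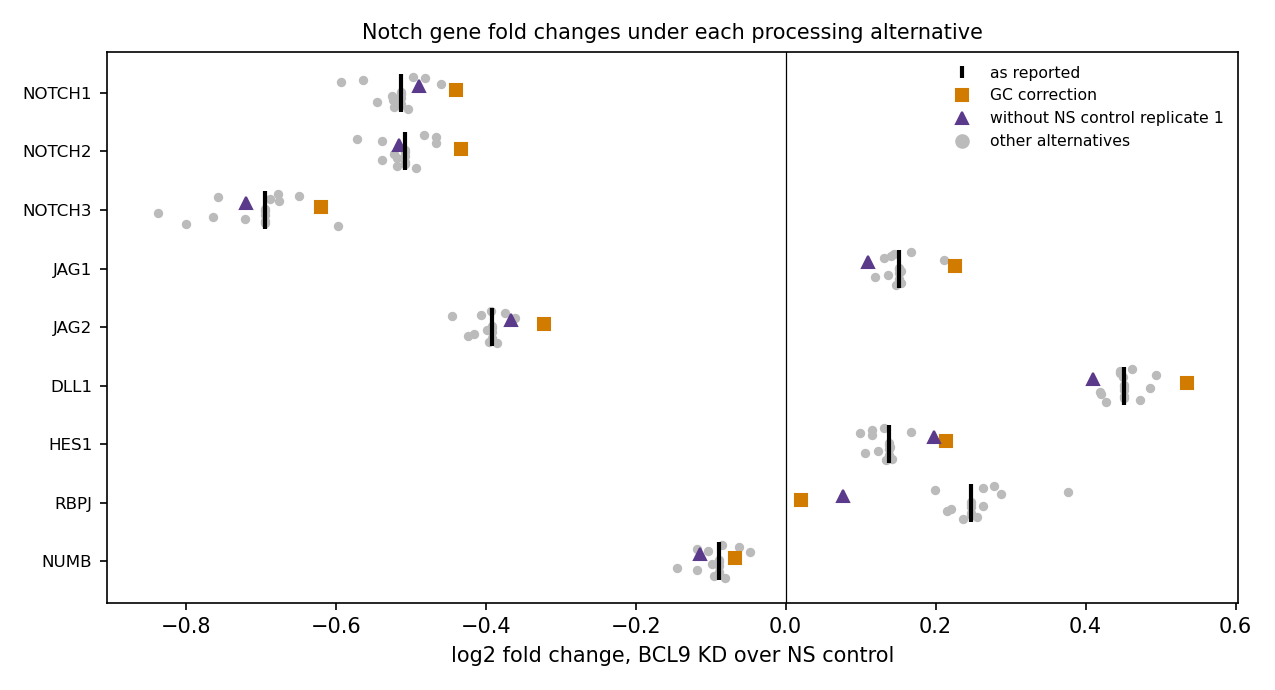
Log2 fold changes of the 9 members tested under the processing as reported (black bar) and under 18 alternatives, with the GC correction as an orange square, the fit without NS control replicate 1 as a purple triangle and the others as grey points. Each gene stays on its side of 0 under every alternative, and RBPJ moves most, from 0.38 to 0.02.

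Fibroblast, endothelial and leukocyte markers were low, and of the luminal markers KRT8 and KRT18 were high. The luminal markers KRT8, KRT18, KRT19, ESR1, PGR and GATA3 summed to 431 to 549 FPKM in NS control and to 393 to 411 FPKM in BCL9 KD libraries, with 4 of the 6 tested, 0 passing and PGR at 0. Nearly all of that sum was KRT8, at 262 to 333 and 242 to 246 FPKM, and KRT18, at 161 to 205 and 142 to 156 FPKM. Neither overlapped between the groups (log2FC −0.26 and −0.24, limma adjusted p = 0.144 and 0.207), and each passed in 1 of 18 alternatives (limma adjusted p = 0.0329 and 0.0346), while KRT19 lay between 0.604 and 1.09 FPKM and ESR1 under 0.1 FPKM. The endothelial markers PECAM1, CDH5, VWF, KDR and TEK summed to 1.90 to 2.45 FPKM in NS control and 3.23 to 4.07 FPKM in BCL9 KD libraries. PECAM1 made up most of that sum and was higher in BCL9 KD, with a log2FC of 0.61 (limma adjusted p = 0.0477). It passed in 6 of 16 alternatives, did not pass without NS control replicate 1 (log2FC 0.66, limma adjusted p = 0.0534) and had no GC value, so that the GC correction gave none. CDH5, VWF and TEK stayed under 0.1 FPKM and KDR under 0.2 FPKM, and none of the 4 was tested. TEK, with 3 to 9 reads in NS control and 0 to 2 reads in BCL9 KD libraries, was lower in BCL9 KD without overlap, and KDR, with 3 to 12 and 12 to 16 reads, overlapped in FPKM. The leukocyte markers PTPRC, CD3E, CD68, MS4A1 and CD14 summed to 0.294 to 0.560 and 0.837 to 1.38 FPKM, nearly all of it CD14, with MS4A1 at 0. CD14 did not overlap between the groups (log2FC 0.73, limma adjusted p = 0.0811, from 11 to 49 reads per library) and passed after the GC correction (0.82, limma adjusted p = 0.0473). The fibroblast markers COL1A1, COL3A1, LUM, DCN, PDGFRA and PDGFRB summed to 0.694 to 0.720 and 0.763 to 0.905 FPKM, without overlap, with COL3A1 at 0. COL1A1, which was tested, overlapped (log2FC 0.10, limma adjusted p = 0.693). PDGFRB, with 6 to 8 and 8 to 15 reads, was higher in BCL9 KD without overlap in FPKM and was not tested. The part of these marker sums in the Notch gene results was not tested.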

How the data were processed

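RNA from 3 NS control and 3 BCL9 KD cultures of DCIS.COM was sequenced as paired-end reads from a NEB Next Ultra library. The submitters' processing notes name STAR, HTSeq 0.6.1 and hg38. The authors deposited FPKM values per gene with the gene length, computed from reads counted on each gene and its length. Multiplied by length, 100% of the deposited FPKM values were whole multiples of a single step (tolerance 0.1 read), which gave the reads per gene quoted here. FPKM values were tested as log2(FPKM + 0.5) with limma 3.58.1 (trend) in R 4.3.3, over the 13745 genes with a mean of at least 0.5 FPKM, with Benjamini-Hochberg adjustment and a threshold of 0.05. The added 0.5 FPKM understates changes of low genes. Standard errors and 95% intervals come from the same fit and are not adjusted. Groups and replicate numbers were taken from the sample labels.

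Alternatives were other added values, filters, scalings, limma without the trend, voom on the recovered reads, the replicate number as a block, protein-coding genes only and each library left out. A loess correction of each library for transcript GC content (span 0.3, 13577 genes, 98.78%) was chosen after the data were seen, with and without the block. GC content was taken from GENCODE transcripts of GRCh37, an earlier build than that of the files, matched by Ensembl gene ID, and no coordinates of that build were used. The procedure was also run on simulated reads, which had no GC shift and no outlying library, so that run does not bear on the calls made here. The members and gene lists were chosen with earlier results of these data known. Genes named from the pathway list were those passing the test and, in each role, the gene with the largest absolute fold change among those tested. NCSTN, FURIN and PSENEN were added after their values were seen. Protein sequences were not used here.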

Additional observations from a re-analysis of the deposited data

How the results depend on the processing

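As reported, limma called 807 of all genes, 5 members and 1 further pathway gene, in that order below. Without the filter on low FPKM, with 30731 genes tested, the counts were 142, 0 and 0. At an unadjusted limma p under 0.05 they were 4389, 5 and 16. Limma without the trend gave 332, 2 (DLL1 and NOTCH3) and 0, with 3640, 5 and 17 unadjusted. Voom on the recovered reads gave 1400, 5 and 2, protein-coding genes only gave 1409, 5 and 4, and the GC correction gave 1716, 6 and 5. With the replicate block the counts in limma were 0, 0 and 0, with 3235, 5 and 14 unadjusted, and BCL9 also did not pass (limma adjusted p = 0.0656). The block and the GC correction together gave 327, 0 and 0, with 3619, 7 and 17 unadjusted. Same-numbered samples did not deviate together, with correlations of −0.147, −0.0884 and −0.00287 across genes and a mean of −0.0795 against 0.0387 for samples of other numbers, so the numbers were not taken as pairs. With each library left out the counts ran from 5 to 1712, from 0 to 5 and from 0 to 4: without NS control replicate 3 they were 1712, 5 and 4, and without NS control replicate 1 they were 721, 4 and 0. Unadjusted, they ran from 2330 to 4754, from 5 to 6 and from 5 to 25. The other alternatives gave 646 to 1083 genes, 5 members and 1 pathway gene. The cause of these shifts was not tested. The direction of each of the 9 members tested held under all 18 alternatives. Over these, the limma adjusted p of NOTCH1 ran from 0.0166 to 0.166, of NOTCH2 from 0.0135 to 0.156, of NOTCH3 from 0.00481 to 0.125, of JAG2 from 0.0211 to 0.178 and of DLL1 from 0.0164 to 0.153. HEY1 had 3 to 13 reads per library and was not tested.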
